A study of Homo sapiens with 6 samples.

Results

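Homologous recombination and Fanconi genes were taken by symbol from the deposited expression tables: 42 named genes of 15953 in all, and all 42 were measured. The RNA came from EJ, a long-established cell line of human bladder cancer, and 3 libraries were made in each of 2 groups. The shNC libraries were from cells with a negative control lentivirus, and the shSTIL libraries from stable cells with a lentivirus that knocks down STIL, a gene of centriole duplication. Both groups were the same cell line with no other agent named and are told apart by the hairpin carried. The hairpin sequence, the number of hairpins and whether the stable cells were pooled or 1 clone are not given in the sources used here. The labels name the groups by short hairpin RNA, whereas the series design text and the column headings name them by siRNA. The groups were taken from the labels. Nothing states that the replicates were separate cultures, so p-values measure only the spread between these libraries.

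Homologous recombination repairs a broken chromosome by copying the sister chromatid. Nucleases first resect the broken ends to single strands, BRCA1, PALB2 and BRCA2 then prepare the single strand that invades the intact duplex, and helicases and nucleases undo the joint molecules that result. The Fanconi pathway handles crosslinks between the strands at a stalled fork. There a core complex of Fanconi proteins attaches ubiquitin to the FANCD2-FANCI clamp, which brings in the nucleases that cut the crosslink out. Both pathways act mainly in S and G2 phase, and several of these genes are known for inherited cancer risk and for the response of tumours, bladder cancer among them, to platinum drugs.

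Of the 42 genes, 29 (69.0%) were lower and 3 (7.14%) were higher in the shSTIL libraries, and 10 were not called. A gene was called when the limma test over all genes gave a Benjamini-Hochberg adjusted p under 0.01. Over all 15953 genes the same test called 23.6% lower and 23.5% higher. Among the 8770 genes whose mean log2 CPM lay within the range of the 42, from 2.59 to 7.07, it called 31.2% lower and 31.1% higher. The median log2 fold change of the 42 was -0.41, beside 0.01 for all genes, and 34 of the 42 lay below 0. Log2 fold changes are differences of mean log2 CPM, shSTIL minus shNC. CPM is the read count of a gene scaled by the size of its library, and the deposited log2 values include a small added count that makes changes look smaller where reads are few. The groups did not overlap, with shSTIL lower, for 33 of the 42 genes, against 30.5% of all genes. For 4 of the 42 they did not overlap with shSTIL higher, against 29.9% of all genes. A log2 fold change of -1 or less among the calls was found for 5 of the 42, RAD54L, RMI2, FANCA, RMI1 and TONSL, against 3.1% of all genes. An exact two-sided permutation test of 3 libraries against 3 has 20 labellings, so its smallest p is 0.1. That p was reached by each of the 37 genes whose groups did not overlap.

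**Figure D1:**
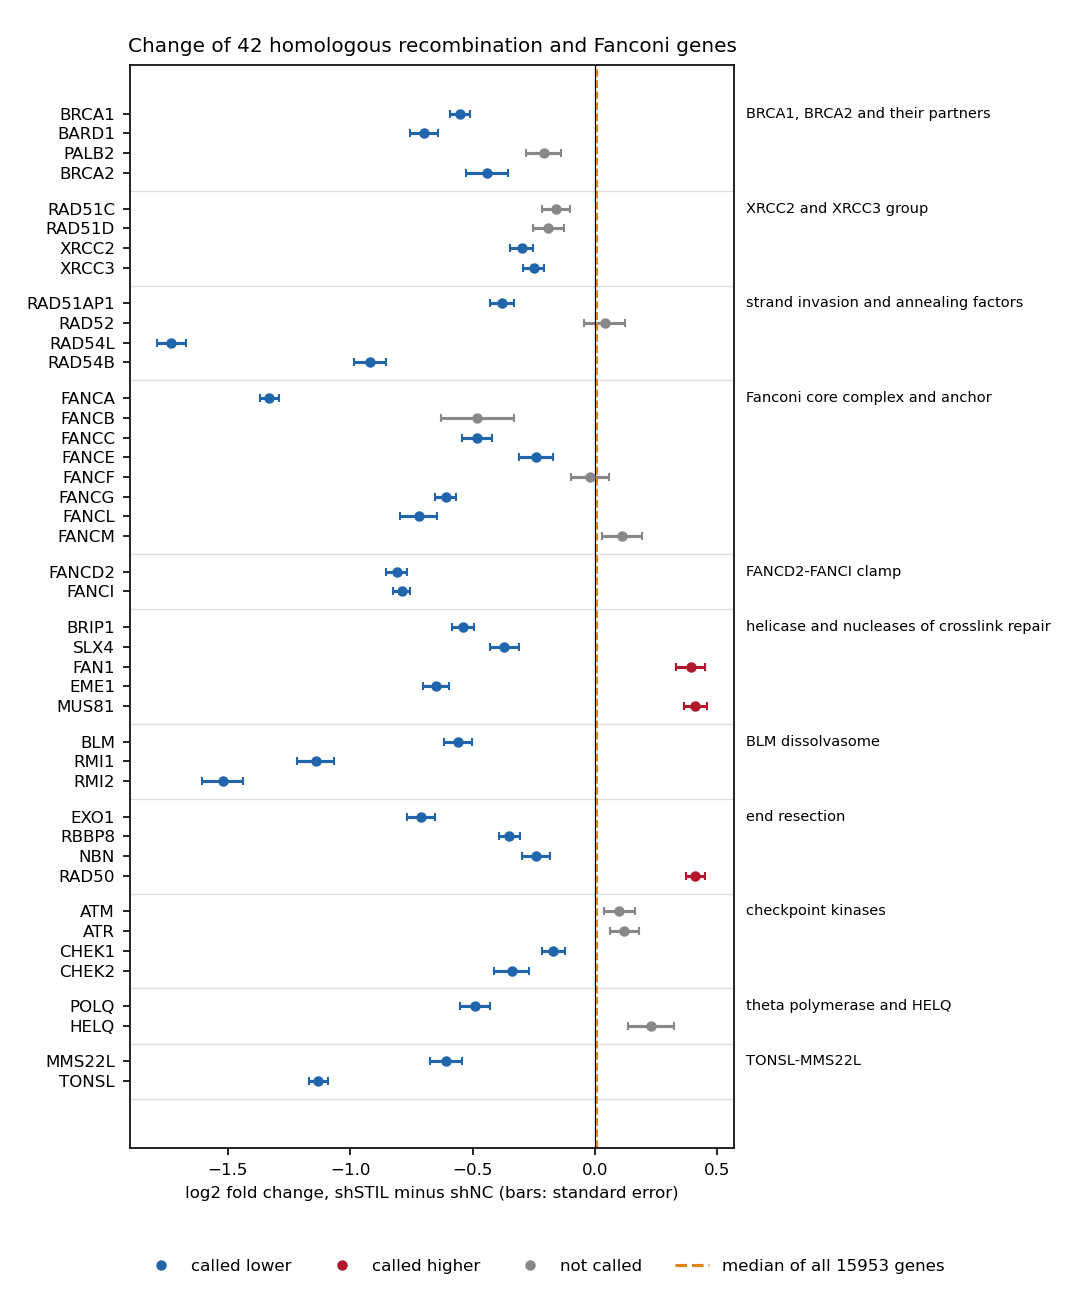
Log2 fold change, shSTIL minus shNC, of each of the 42 genes by role, with its limma standard error as a bar. Most points lie left of the dashed median of all 15953 genes (0.01), from -1.73 (RAD54L) to 0.41 (MUS81 and RAD50), with 29 called lower and 3 called higher.

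The libraries held 16214800 to 16431200 reads in the shNC group and 16734500 to 16901600 in the shSTIL group, as recovered from the log2 CPM. STIL, the targeted gene (GRCh38, chromosome 1, 47250139 to 47314147, minus strand), read 5.98, 6.10 and 6.01 log2 CPM in the shNC libraries and 4.05, 4.06 and 4.01 in the shSTIL libraries. Its log2 fold change (with SE, the standard error) was -1.99 (SE 0.052, adjusted p = 6.1e-12, limma), which is 25.2% of the control level. As for the identity of the cells, the keratins KRT8, KRT18 and KRT7 of simple epithelium each had at least 1345 reads in a library. KRT8 was lower by -0.70 and KRT7 higher by 0.49 in log2 fold change. EPCAM had 15 to 21 reads and CDH1, which encodes E-cadherin, 0 to 3. Of 6 epithelial markers listed, these 5 were measured. Of 9 urothelial markers 7 were in the tables used here, and 0 of the 7 reached a mean log2 CPM of 1. Among them KRT5 and KRT20 were at 0 or 1 read in every library, and UPK1B was lower (13 to 20 reads, then 5 to 11). Of 5 leukocyte markers 2 were in the tables used here. CD68, which macrophages express strongly, had 173 to 193 reads in shNC and 218 to 250 in shSTIL, with no overlap, and was not called (log2 fold change 0.25, adjusted p = 0.0322, limma), and LYZ had 1 to 9 reads. Markers of endothelium (PECAM1, VWF, CDH5) had 0 to 11 reads. Of 4 fibroblast markers 1 was measured, COL1A1, which had 38 to 59 reads in shNC and 21 to 32 in shSTIL. COL1A1 was called lower (log2 fold change -0.96, adjusted p = 0.00196, limma).

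All 22 genes of a list of replication and proliferation markers, such as MCM2 and PCNA, were lower in the shSTIL libraries, with a median log2 fold change of -1.09. Of all 15953 genes, 23.6% were lower, with a median of 0.01. The list was chosen with earlier results of these data known. The largest fall in that list was that of CCNE2, a cyclin of S phase entry, at -2.80. The part of this shift in the values of the recombination and Fanconi genes was not tested. In bulk RNA, fewer cells in the phases that use a gene and less of its RNA per cell cannot be told apart.

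Promoter windows of 6 genes are shown here because they belong to the called genes with the largest changes among those whose window held 1 of the searched words. A window runs from 250 bases before to 50 bases after a start in RefSeq (GRCh38.p14), and 37 of the 42 genes had an entry; RAD54B, FANCI, RMI2, NBN and TONSL had none. Capitals mark the searched words on either strand: the E2F words TTTCCCGC, TTTGGCGC and TTTCGCGC, CCAAT (bound by NF-Y), and the CHR word TTTGAA (bound by the MuvB complex). No 2 marked words overlap in these windows. RefSeq lists 2 starts each for RAD54L, RMI1 and EXO1, and the first window that held a word is shown. Distances run from the first printed base of a word to the RefSeq start of the window shown. In GENCODE, EXO1 begins at 241847967, near the first base of its window, and RMI1 at 83980711, past the end of its window. The windows are chr1:46247438-46247737 (plus strand) for RAD54L, chr16:89816598-89816897 (minus strand) for FANCA and chr9:83980109-83980408 (plus strand) for RMI1. Those of the other 3 are chr3:10026187-10026486 (plus strand) for FANCD2, chr1:241847954-241848253 (plus strand) for EXO1 and chr6:97283167-97283466 (minus strand) for MMS22L.
RAD54L: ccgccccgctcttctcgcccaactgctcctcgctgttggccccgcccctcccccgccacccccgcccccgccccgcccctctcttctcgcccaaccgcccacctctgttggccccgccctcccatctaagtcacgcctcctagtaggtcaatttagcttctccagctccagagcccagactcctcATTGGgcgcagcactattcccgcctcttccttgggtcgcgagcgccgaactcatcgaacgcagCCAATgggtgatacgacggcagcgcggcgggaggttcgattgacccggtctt
FANCA: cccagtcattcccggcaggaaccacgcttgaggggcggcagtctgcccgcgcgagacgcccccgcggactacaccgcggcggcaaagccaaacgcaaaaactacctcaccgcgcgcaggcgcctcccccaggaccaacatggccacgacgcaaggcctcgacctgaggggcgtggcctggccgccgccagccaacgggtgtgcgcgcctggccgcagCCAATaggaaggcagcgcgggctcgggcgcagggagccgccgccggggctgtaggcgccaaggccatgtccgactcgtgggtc
RMI1: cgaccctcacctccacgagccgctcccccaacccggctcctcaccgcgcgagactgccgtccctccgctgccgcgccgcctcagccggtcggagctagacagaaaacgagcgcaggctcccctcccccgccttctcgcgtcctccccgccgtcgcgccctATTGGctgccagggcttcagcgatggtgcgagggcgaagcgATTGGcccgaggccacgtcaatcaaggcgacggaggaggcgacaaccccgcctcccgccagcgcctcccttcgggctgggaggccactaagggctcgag
FANCD2: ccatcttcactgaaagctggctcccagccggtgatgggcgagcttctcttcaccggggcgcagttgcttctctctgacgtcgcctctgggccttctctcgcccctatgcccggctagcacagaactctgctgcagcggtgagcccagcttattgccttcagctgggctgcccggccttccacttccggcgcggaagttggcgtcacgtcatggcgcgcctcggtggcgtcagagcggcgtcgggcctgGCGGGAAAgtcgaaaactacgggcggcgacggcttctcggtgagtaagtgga
EXO1: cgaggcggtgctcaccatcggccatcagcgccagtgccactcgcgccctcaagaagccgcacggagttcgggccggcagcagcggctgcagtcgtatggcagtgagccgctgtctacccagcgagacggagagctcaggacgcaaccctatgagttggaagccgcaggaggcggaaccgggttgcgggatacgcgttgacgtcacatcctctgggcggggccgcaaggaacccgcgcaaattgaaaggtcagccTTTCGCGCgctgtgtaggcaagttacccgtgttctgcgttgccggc
MMS22L: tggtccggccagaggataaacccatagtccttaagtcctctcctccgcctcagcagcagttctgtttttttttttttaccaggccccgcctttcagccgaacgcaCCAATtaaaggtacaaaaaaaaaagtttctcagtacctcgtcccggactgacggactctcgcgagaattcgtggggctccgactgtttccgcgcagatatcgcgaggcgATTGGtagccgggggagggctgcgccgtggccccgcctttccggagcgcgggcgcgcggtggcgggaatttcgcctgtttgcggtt
RAD54L holds CCAAT once on each strand, at 2 and 65 bases before the start, and the nearer word runs past the start. RMI1 holds CCAAT on the opposite strand at 90 and 49 bases, and MMS22L on both strands at 145 and 36 bases. FANCA holds a single CCAAT at 33 bases. In FANCD2 the E2F word TTTCCCGC, on the opposite strand, begins 2 bases before the start and runs past it. In EXO1 the E2F word TTTCGCGC begins at base 5 of the transcript from the start used. An E2F word stood in the windows of 4 of the 37 genes (10.8%), EXO1, FANCC, FANCD2 and XRCC2, beside 5.1% of the 12621 measured genes with a window and 2.74% of all 35116 windows. All 4 were lower, with a median log2 fold change of -0.60, and the 33 without an E2F word had a median of -0.35, with 20 lower and 3 higher, a contrast that rests on 4 genes. CCAAT stood in 17 of the 37 (45.9%), beside 42.7% of the measured genes and 34.61% of all windows, and the CHR word in 5 (13.5%), beside 14.4% and 15.16%. Of the 17 genes with CCAAT 11 were lower, with a median of -0.34, and of the 20 without it 13 were lower, with a median of -0.40. For the CHR word the medians were -0.48 in the 5 genes with it, 3 of them lower, and -0.36 in the 32 without, 21 of them lower. These matches describe letters in a window and not a site.

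BRCA1 and BARD1, the partners in a ubiquitin ligase that acts at resected ends, were both lower. BRCA1 (GRCh38, chromosome 17, 43044295 to 43170245, minus strand) stood at 6.40, 6.39 and 6.39 log2 CPM in the shNC libraries and at 5.92, 5.81 and 5.81 in the shSTIL libraries. Its reads went from 1333 to 1363 per library to 951 to 1033, a log2 fold change of -0.55 (SE 0.041, adjusted p = 9.4e-08, limma). BARD1 stood at 5.45, 5.52 and 5.43 in shNC and at 4.78, 4.84 and 4.67 in shSTIL, a log2 fold change of -0.70 (adjusted p = 1.9e-07, limma). Neither gene had overlapping groups, and both calls held with any library left out. BRCA2, which acts on single strands after resection, had 4.78, 4.95 and 4.94 log2 CPM in shNC and 4.66, 4.31 and 4.40 in shSTIL. That is a log2 fold change of -0.44 (SE 0.085, adjusted p = 6.2e-04, limma), with shSTIL replicate 1 close to the lowest shNC library. The BRCA2 call was lost in 5 of 6 fits that left out 1 library, with limma adjusted p from 0.0199 to 0.0552, and held only without shSTIL replicate 1, at -0.54. PALB2, the bridge between BRCA1 and BRCA2, was not called (log2 fold change -0.21, adjusted p = 0.024, limma), although its groups did not overlap.

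RAD51C, RAD51D, XRCC2 and XRCC3, which form complexes that assist strand invasion, had log2 fold changes from -0.30 to -0.16. Of the 4, 2 were called lower, beside 23.6% of all genes. XRCC2 stood at 5.72, 5.68 and 5.66 log2 CPM in shNC and at 5.39, 5.33 and 5.43 in shSTIL. It was lower by a log2 fold change of -0.30 (adjusted p = 6.3e-05, limma). XRCC3 went from 5.64, 5.63 and 5.59 to 5.39, 5.37 and 5.35, a log2 fold change of -0.25 (adjusted p = 1.9e-04, limma). In the annotation, 45.3% of the exon bases of XRCC3 overlap KLC1 on the opposite strand, and whether the libraries kept strand is not given in the sources used here, so its value is uncertain. RAD51C had 4.98, 5.09 and 5.04 in shNC and 4.86, 4.95 and 4.83 in shSTIL (log2 fold change -0.16, adjusted p = 0.0292, limma), and was not called. RAD51D had 4.50, 4.42 and 4.45 in shNC and 4.28, 4.22 and 4.29 in shSTIL (log2 fold change -0.19, adjusted p = 0.0168, limma), and was not called either. In both uncalled genes every shSTIL library lay below every shNC library.

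RAD54L, a motor protein that helps a strand invade and remodels the duplex, had the largest change of the 42. RAD54L (GRCh38, chromosome 1, 46247688 to 46278473, plus strand) stood at 6.01, 6.01 and 5.95 log2 CPM in the shNC libraries and at 4.38, 4.22 and 4.18 in the shSTIL libraries. These levels rest on 1032, 1047 and 980 reads, and on 353, 319 and 305 reads. Its log2 fold change was -1.73 (SE 0.058, adjusted p = 5.2e-11, limma), which is 30.1% of the control level, and between -1.79 and -1.69 over all alternatives. Of its exon bases, 18.0% overlap LRRC41 on the opposite strand. The paralog RAD54B had 5.23, 5.22 and 5.27 in shNC and 4.19, 4.36 and 4.42 in shSTIL, a log2 fold change of -0.92 (adjusted p = 5.2e-08, limma). RAD54B shares 63.3% of its exon bases with FSBP on the same strand, and reads of the 2 genes are uncertain. RAD51AP1, which stimulates strand invasion, was lower by -0.38 (5.38 ± 0.03 to 5.0 ± 0.04 log2 CPM, SD, n = 3 libraries a group, adjusted p = 1.5e-05, limma). RAD52, an annealing factor, had 3.85, 3.89 and 3.88 in shNC and 3.91, 4.04 and 3.78 in shSTIL, on 230 to 281 reads. Its groups overlapped and it was not called (log2 fold change 0.04, adjusted p = 0.739, limma).

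**Figure D2:**
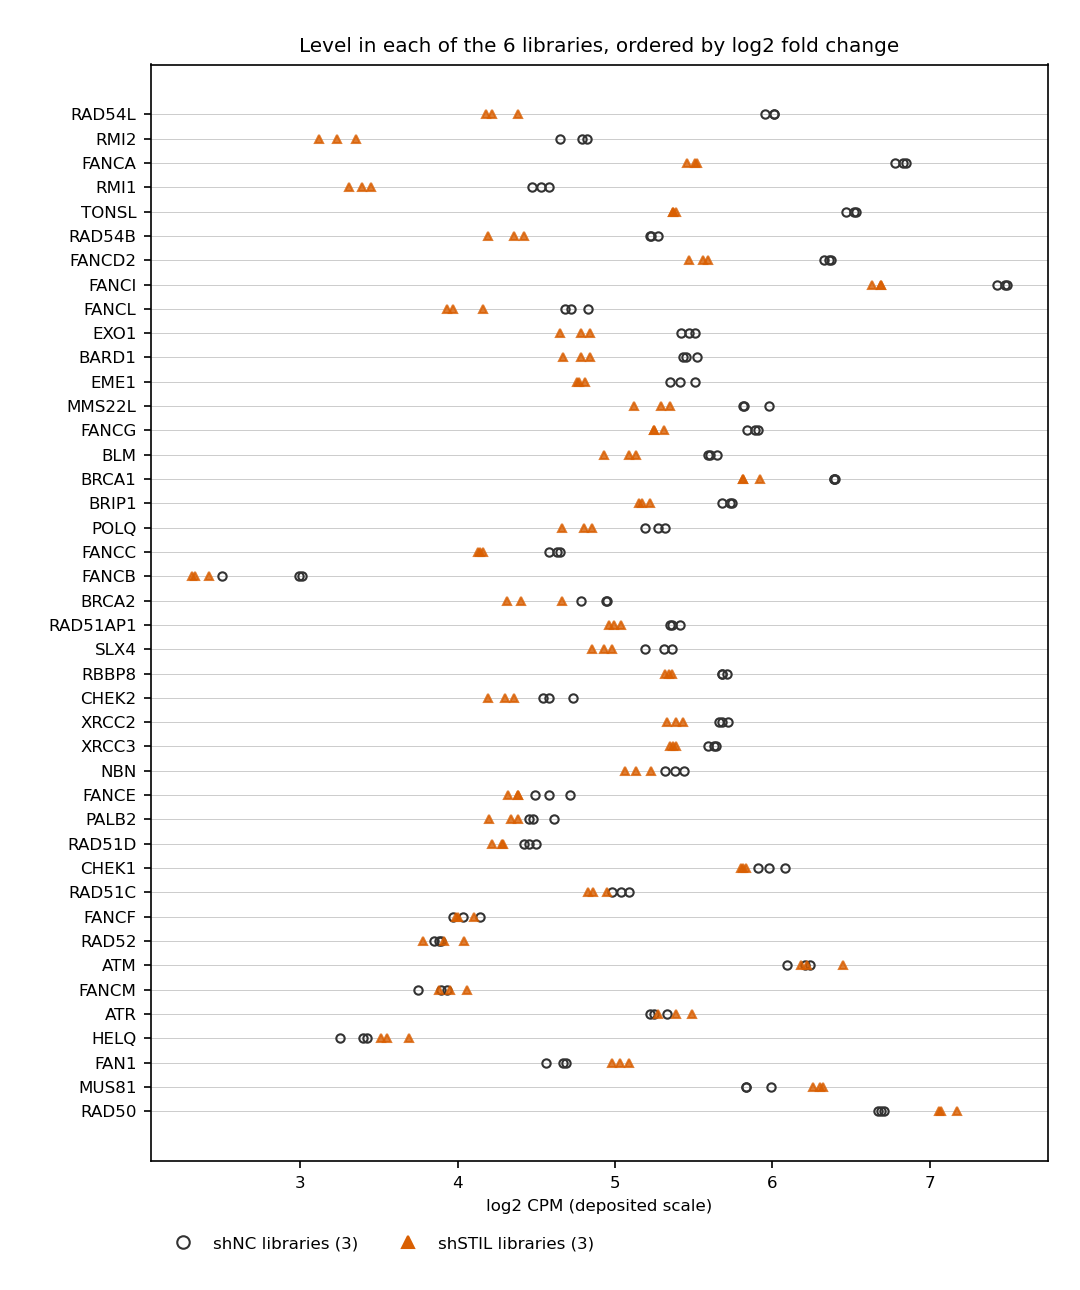
Level of each of the 42 genes in each library, in log2 CPM, with genes ordered by log2 fold change, circles for the 3 shNC and triangles for the 3 shSTIL libraries. The triangles lie left of all circles for 33 genes, from RAD54L (4.18 to 4.38 against 5.95 to 6.01) down, and right of them for HELQ, FAN1, MUS81 and RAD50.

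Of the 8 genes of the Fanconi core complex and its anchor, 5 were lower, beside 23.6% of all genes, and 3 were not called. FANCA (GRCh38, chromosome 16, 89737549 to 89816657, minus strand), a scaffold of the core complex, stood at 6.85, 6.83 and 6.78 log2 CPM in the shNC libraries and at 5.51, 5.52 and 5.46 in the shSTIL libraries. Reads fell from 1751 to 1854 per library to 744 to 789. The log2 fold change of FANCA was -1.33 (SE 0.039, adjusted p = 1.5e-11, limma), which is 39.9% of the control level. ZNF276 on the opposite strand overlaps 22.4% of the exon bases of FANCA. The other 4 lower genes were FANCL, FANCG, FANCC and FANCE. FANCL, the subunit with the ubiquitin ligase activity, was lower by -0.72 (4.74 ± 0.08 to 4.02 ± 0.12 log2 CPM, SD, n = 3 a group, adjusted p = 2.2e-06, limma), and 26.6% of its exon bases overlap VRK2 on the opposite strand. FANCG, which binds FANCA, was lower by -0.61 (5.88 ± 0.04 to 5.27 ± 0.04, adjusted p = 6.1e-08, limma). FANCC was lower by -0.48 (4.62 ± 0.03 to 4.14 ± 0.01, adjusted p = 1.3e-05, limma). FANCE, which contacts FANCD2, had the weakest of these calls (log2 fold change -0.24, 4.59 ± 0.11 to 4.36 ± 0.04, adjusted p = 0.00965, limma), and kept it in none of the 6 fits with a library left out (limma adjusted p from 0.0121 to 0.0760).

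FANCB, FANCF and FANCM were not called. FANCB, on 82 to 128 reads a library the least read of the 42, had 2.50, 2.99 and 3.01 log2 CPM in shNC and 2.33, 2.42 and 2.31 in shSTIL. Its groups did not overlap, and its log2 fold change was -0.48 (SE 0.149, adjusted p = 0.0135, limma). Without shNC replicate 1, the lowest of the controls, FANCB was called lower at -0.65 (adjusted p = 0.00293, limma), and edgeR called it with all 6 libraries (adjusted p = 0.00134). FANCB stayed uncalled in 12 of 17 alternatives. Among these were DESeq2 (adjusted p = 0.0148) and 5 of the 6 fits with a library left out (limma adjusted p from 0.0832 to 0.118). FANCF, an adaptor of the core complex, had a log2 fold change of -0.02 (4.05 ± 0.09 and 4.03 ± 0.06). FANCM, the translocase that anchors the complex on DNA, had one of 0.11 (3.86 ± 0.10 and 3.97 ± 0.09). The groups of both genes overlapped.

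FANCD2 and FANCI, the partners in the clamp that receives ubiquitin, were both lower. FANCD2 (GRCh38, chromosome 3, 10026414 to 10101930, plus strand) had 6.36, 6.37 and 6.33 log2 CPM in shNC and 5.59, 5.47 and 5.56 in shSTIL, a log2 fold change of -0.81 (SE 0.043, adjusted p = 3.2e-09, limma). FANCI (GRCh38, chromosome 15, 89243949 to 89317261, plus strand) had 7.43, 7.48 and 7.49 in shNC and 6.69, 6.69 and 6.63 in shSTIL, a log2 fold change of -0.79 (SE 0.034, adjusted p = 4.7e-10, limma). FANCI was the most read of the 42 in the shNC libraries, with 2761, 2905 and 2851 reads, and it had 1766, 1779 and 1683 in shSTIL. Per 1000 bases of its longest coding transcript it also had the highest shNC level of the 42, 37.2 ± 0.81 CPM (SD, n = 3), and 21.5 ± 0.51 in shSTIL. The shNC level of FANCD2 on that scale was 15.6 ± 0.26.

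The helicase and nucleases that act after the clamp moved in both directions, 3 lower and 2 higher, beside 23.6% and 23.5% of all genes. BRIP1, a helicase that binds BRCA1, was lower by -0.54 (5.72 ± 0.03 to 5.18 ± 0.04 log2 CPM, SD, n = 3 a group, adjusted p = 2.6e-07, limma). SLX4, the scaffold that gathers the nucleases, was lower by -0.37 (5.29 ± 0.08 to 4.92 ± 0.07, adjusted p = 1.1e-04, limma). The SLX4 call was lost without shNC replicate 2, shSTIL replicate 1 or shSTIL replicate 2, at limma adjusted p of 0.0113, 0.0106 and 0.0125. EME1, the partner subunit of MUS81 in a nuclease that cuts joint molecules, had 5.51, 5.41 and 5.35 in shNC and 4.76, 4.77 and 4.81 in shSTIL. Its log2 fold change was -0.65 (SE 0.054, adjusted p = 2.6e-07, limma), and 10.3% of its exon bases overlap LRRC59 on the opposite strand.

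MUS81, the catalytic subunit of that nuclease, was higher. MUS81 (GRCh38, chromosome 11, 65857126 to 65867653, plus strand) had 5.99, 5.83 and 5.83 log2 CPM in shNC and 6.32, 6.26 and 6.30 in shSTIL, with 905 to 1015 reads and then 1312 to 1366. The log2 fold change was 0.41 (SE 0.047, adjusted p = 6.1e-06, limma), which is 132.6% of the control level. FAN1 (GRCh38, chromosome 15, 30903852 to 30943108, plus strand), a nuclease that acts on crosslinks, had 4.67, 4.56 and 4.69 in shNC and 5.09, 4.98 and 5.03 in shSTIL. Its log2 fold change was 0.39 (SE 0.058, adjusted p = 5.8e-05, limma), and 11.7% of its exon bases overlap MTMR10 on the opposite strand. The groups did not overlap for either gene, and both calls held with any library left out. Tested against a change of 1.2-fold rather than 0, neither call held (limma treat adjusted p = 0.0203 for MUS81 and 0.0782 for FAN1).

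BLM, RMI1 and RMI2, the 3 genes among the 42 of the BLM dissolvasome, which unlinks joined duplexes without crossing over, were lower. TOP3A, the topoisomerase of that complex, was not among the 42 and was looked up after the values of its partners were seen. TOP3A was not called (log2 fold change -0.11, adjusted p = 0.034, limma), although every shSTIL library lay below every shNC library. RMI2 (GRCh38, chromosome 16, 11249619 to 11381662, plus strand), a small subunit that stabilizes the complex, stood at 4.79, 4.82 and 4.65 log2 CPM in the shNC libraries and at 3.35, 3.23 and 3.12 in the shSTIL libraries. With 442, 458 and 397 reads against 172, 159 and 146, its log2 fold change was -1.52 (SE 0.083, adjusted p = 4.4e-09, limma), which is 34.9% of the control level. RMI1 (GRCh38, chromosome 9, 83980711 to 84004074, plus strand), the subunit that RMI2 binds, had 4.47, 4.58 and 4.53 in shNC and 3.39, 3.31 and 3.45 in shSTIL. Its log2 fold change was -1.14 (SE 0.076, adjusted p = 2.8e-08, limma), which is 45.3% of the control level. The helicase BLM itself was lower by -0.56 (5.61 ± 0.03 to 5.05 ± 0.11, SD, n = 3 a group, adjusted p = 1.5e-06, limma).

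Among the genes of end resection, 3 were lower and RAD50 was higher, beside 23.6% lower and 23.5% higher of all genes. EXO1, the exonuclease of long resection, was lower by -0.71 (5.46 ± 0.05 to 4.76 ± 0.10 log2 CPM, SD, n = 3 a group, adjusted p = 2.2e-07, limma). RBBP8, which encodes CtIP and starts resection, was lower by -0.35 (5.69 ± 0.02 to 5.34 ± 0.02, adjusted p = 9.5e-06, limma). NBN, the regulatory subunit of the complex of MRE11, RAD50 and NBN, was lower by -0.24 (5.38 ± 0.06 to 5.14 ± 0.09, adjusted p = 0.00215, limma). The NBN call held only without shSTIL replicate 2, and the other 5 fits that left out a library gave limma adjusted p from 0.0175 to 0.0468. RAD50 (GRCh38, chromosome 5, 132556019 to 132646344, plus strand), the ATPase of the same complex, had 6.67, 6.71 and 6.69 in shNC and 7.17, 7.07 and 7.06 in shSTIL. Its reads went from 1631, 1707 and 1644 to 2468, 2307 and 2260, a log2 fold change of 0.41 (SE 0.038, adjusted p = 7.2e-07, limma). The rise of RAD50 was the only one of the 3 that also passed the test against a 1.2-fold change. In the annotation, 90.6% of its exon bases are shared with AC116366.3, which lies on the same strand, so reads of the 2 genes are uncertain. MRE11, which was not among the 42 and was looked up after the values of its partners were seen, was not called (log2 fold change -0.11, adjusted p = 0.0756, limma). Its groups did not overlap, with shSTIL lower.

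The checkpoint kinases had a median log2 fold change of -0.04, the nearest to 0 of the roles. Of the 4, 2 were called lower, beside 23.6% of all genes lower and 23.5% higher. ATM, the kinase that answers breaks, had 6.09, 6.24 and 6.21 log2 CPM in shNC and 6.45, 6.18 and 6.22 in shSTIL (log2 fold change 0.10, adjusted p = 0.199, limma). ATR, the kinase that answers single strands at stalled forks, had 5.22, 5.33 and 5.25 in shNC and 5.49, 5.27 and 5.39 in shSTIL (log2 fold change 0.12, adjusted p = 0.11, limma). For both genes the groups overlapped, and shSTIL replicate 1 was the highest library. CHEK1, the effector of ATR, had 5.98, 6.08 and 5.91 in shNC and 5.81, 5.80 and 5.83 in shSTIL, a log2 fold change of -0.17 (adjusted p = 0.00634, limma). CHEK2, the effector of ATM, had 4.58, 4.73 and 4.54 in shNC and 4.36, 4.30 and 4.19 in shSTIL, a log2 fold change of -0.34 (adjusted p = 0.00128, limma). Both were called lower with no overlap, but neither call was stable. CHEK1 kept it only without shNC replicate 3 (limma adjusted p from 0.0274 to 0.0686 in the other 5 fits), and CHEK2 in none of the 6 (0.0136 to 0.0312).

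TONSL and MMS22L form a complex that promotes recombination at stalled forks, and both were lower. TONSL had 6.53, 6.47 and 6.52 log2 CPM in shNC and 5.37, 5.39 and 5.37 in shSTIL, with 1448 to 1485 reads and then 699 to 718. Its log2 fold change was -1.13 (SE 0.038, adjusted p = 5.4e-11, limma), which is 45.6% of the control level. MMS22L had 5.82, 5.98 and 5.81 in shNC and 5.35, 5.29 and 5.12 in shSTIL, a log2 fold change of -0.61 (SE 0.065, adjusted p = 2.4e-06, limma). POLQ, the polymerase of an alternative end joining that starts from resected ends, was lower by -0.49 (5.26 ± 0.06 to 4.77 ± 0.10, SD, n = 3 a group, adjusted p = 1.2e-05, limma). HELQ, a helicase of fork repair with 149 to 217 reads, had 3.40, 3.42 and 3.25 in shNC and 3.51, 3.55 and 3.69 in shSTIL. Every shSTIL library was above every shNC library for HELQ, but it was not called (log2 fold change 0.23, adjusted p = 0.0522, limma).

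Genes that work as a pair were compared within each library, as the difference in log2 CPM between the 2 genes. This difference depends on the lengths of both transcripts, so only its shift between the groups was read, over 10 pairs. The difference did not overlap between the groups for 8 of the 10 pairs. Each had an exact two-sided permutation p = 0.1, the smallest possible, and a Benjamini-Hochberg adjusted p = 0.125 over the 10, so no pair could pass. The share of other gene pairs without overlap was not counted, so the 8 are not read as particular to partners. Of all single genes, 30.5% did not overlap with shSTIL lower and 29.9% with shSTIL higher. EME1 minus MUS81 had the largest shift, -1.05, from -0.47, -0.42 and -0.48 in shNC to -1.56, -1.49 and -1.49 in shSTIL. The 2 subunits thus lay further apart in every shSTIL library. RAD54L minus RAD54B shifted by -0.81, from 0.78, 0.79 and 0.67 to 0.18, -0.14 and -0.24. MMS22L minus TONSL shifted by 0.52, from -0.72, -0.49 and -0.71 to -0.02, -0.10 and -0.25, and RMI1 minus RMI2 by 0.38, from -0.32, -0.24 and -0.12 to 0.04, 0.08 and 0.33. In these 3 pairs the gene with the larger fall was RAD54L, TONSL and RMI2.

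Smaller shifts were found for CHEK1 minus CHEK2 (0.16), BRCA1 minus BARD1 (0.15), RAD51D minus XRCC2 (0.11) and RAD51C minus XRCC3 (0.10). For BRCA1 minus BARD1 the nearest libraries were both at 0.96 after rounding, so the groups only just did not overlap. The remaining 2 pairs overlapped. FANCD2 minus FANCI had -1.07, -1.11 and -1.16 in shNC and -1.10, -1.23 and -1.07 in shSTIL, a shift of -0.02 (exact permutation p = 0.8, adjusted p = 0.889). ATM minus ATR had 0.88, 0.90 and 0.96 in shNC and 0.96, 0.91 and 0.83 in shSTIL, a shift of -0.02 (exact permutation p = 1, adjusted p = 1). With 3 libraries a group, these p-values do not show that the genes of a pair changed alike.

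**Figure D3:**
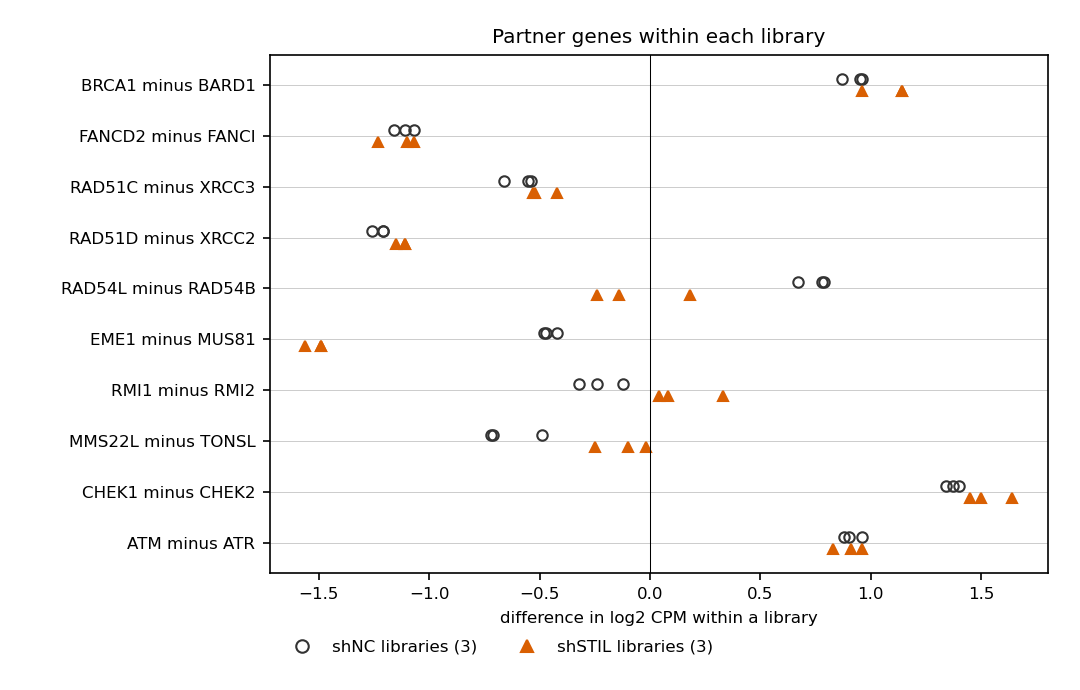
Difference in log2 CPM between the 2 genes of each of 10 pairs within a library, with circles for the 3 shNC and triangles for the 3 shSTIL libraries. EME1 minus MUS81 lies between -0.48 and -0.42 in shNC and between -1.56 and -1.49 in shSTIL, whereas FANCD2 minus FANCI and ATM minus ATR overlap.

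A list of 56 other genes of the same pathways was set beside the 42, and 55 of them were in the tables. Of the 55, 28 were lower (50.9%), 7 were higher (12.7%) and 20 were not called, with a median log2 fold change of -0.29. Over all genes 23.6% were lower and 23.5% higher. The count of lower genes was 18, 17 and 17 without shSTIL replicate 1, 2 or 3, where 16.7%, 16.7% and 15.7% of all genes were lower. These fits test 1 library fewer, and the calls over all genes fell too. The count of higher genes was 3 without shNC replicate 2, shNC replicate 3, shSTIL replicate 1 or shSTIL replicate 3, 4 without shSTIL replicate 2 and 5 without shNC replicate 1. In the fits that left out 1 library, 15.0% to 17.6% of all genes were higher. A call with a log2 fold change of -1 or less was made for 4 of the 55, against 3.1% of all genes. CLSPN, which encodes Claspin, the mediator between ATR and CHEK1, had one of -1.46 (5.36, 5.43 and 5.48 log2 CPM in shNC, 4.11, 3.90 and 3.89 in shSTIL, adjusted p = 1.2e-09, limma). DNA2, a nuclease of long resection, had one of -1.12 (adjusted p = 5.2e-08, limma). UBE2T, the ubiquitin-conjugating enzyme that works with FANCL, had -1.04, and RPA3, the small subunit of the protein that coats single strands, had -1.02, both named after their values were seen. SLX1A and SLX1B are near-identical copies and their split is uncertain. SLX1A was listed at 4, 3 and 168 reads in shNC and at 4, 159 and 156 in shSTIL, and SLX1B had 703 to 961 and 533 to 643.

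**Figure D4:**
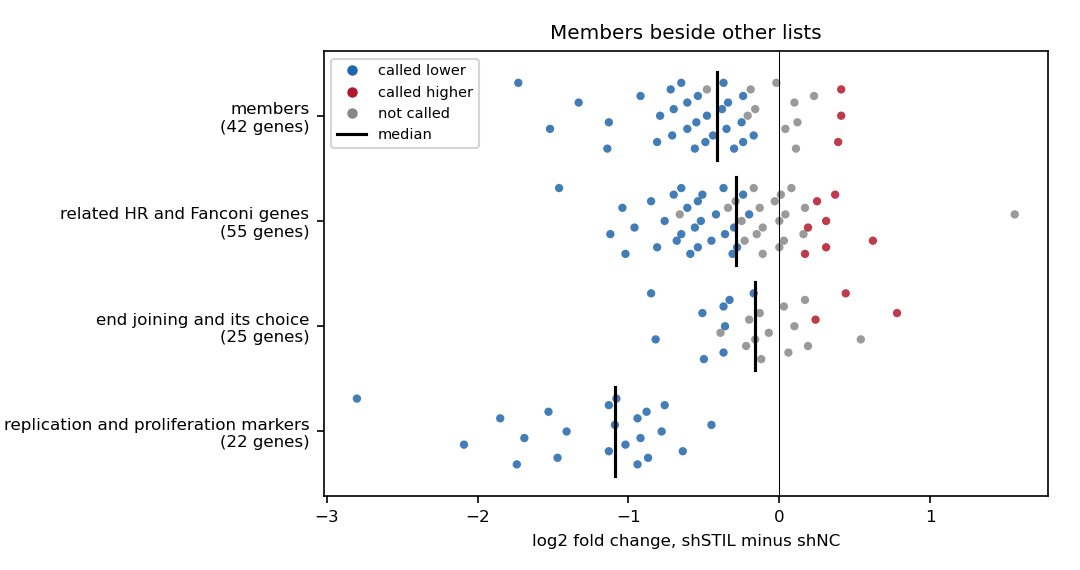
Log2 fold change of each gene of 4 lists, coloured by call, with the median of each list as a bar; the vertical scatter has no meaning. The medians are -0.41 for the 42 genes, -0.29 for the 55 related genes, -0.16 for 25 genes of end joining and -1.09 for 22 replication and proliferation markers.

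The spread between libraries of a group was small against most of these changes. The SD of log2 CPM had a median of 0.06 over the 42 genes in both groups, and was largest for FANCB in shNC (0.29) and BRCA2 in shSTIL (0.18). Each gene had between 82 and 2905 reads in a library. Of the 32 calls, 26 held in all 6 fits that left out 1 library, 23 of them lower and 3 higher. The 6 that did not were BRCA2, FANCE, SLX4, NBN, CHEK1 and CHEK2. Under every alternative tried, a test against a 1.2-fold change included, 20 calls held. The share of all called genes that held in these fits was not counted, so these counts are not read as particular to the 42.

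**Figure D5:**
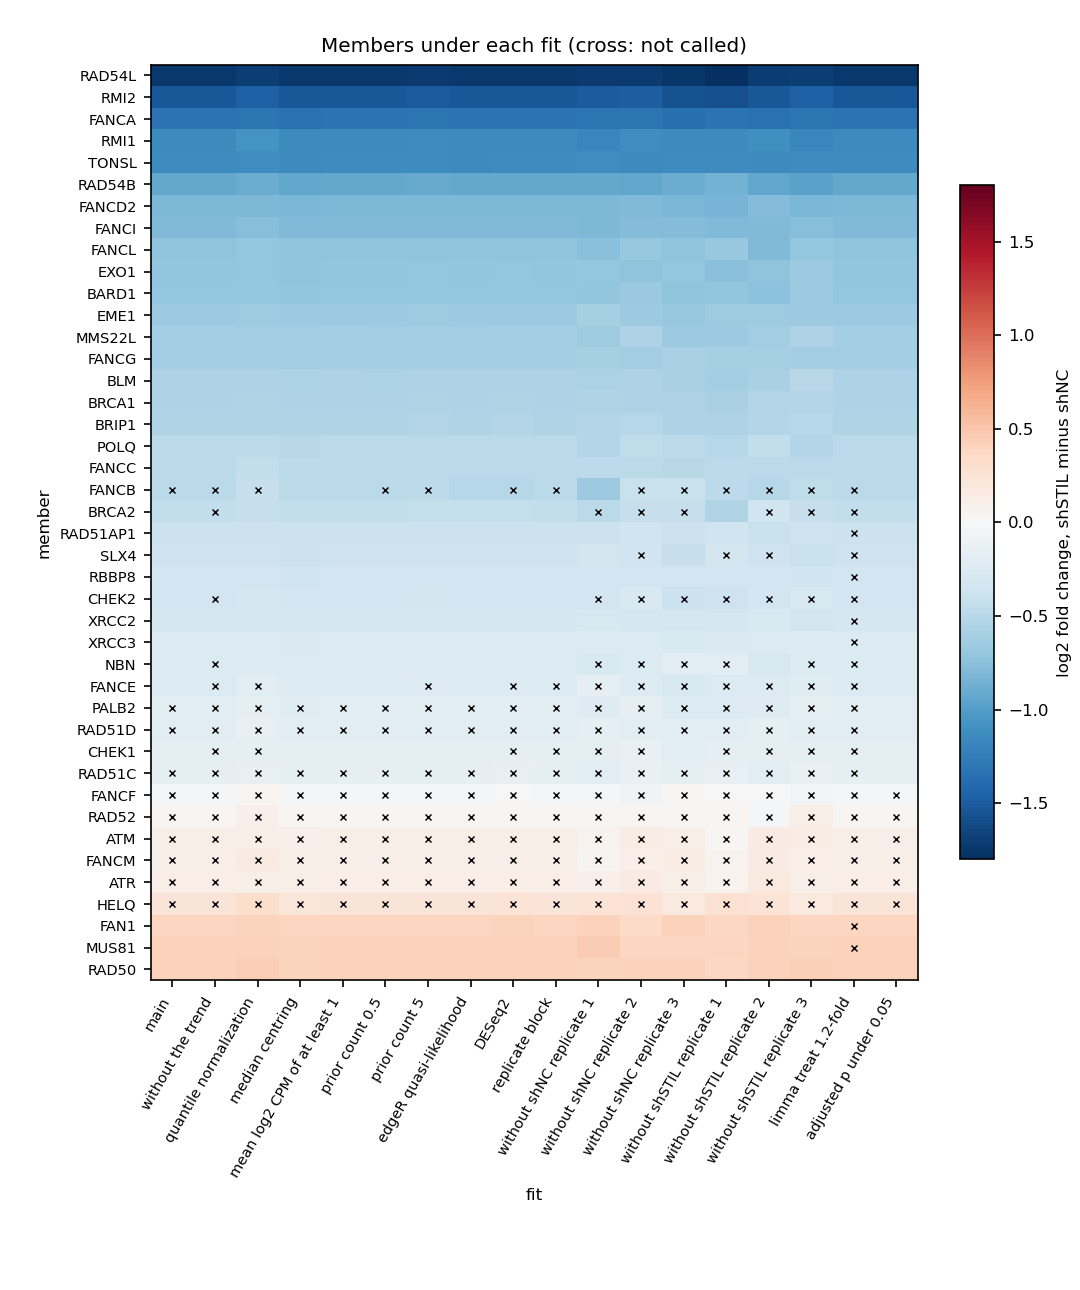
Log2 fold change (colour) of each of the 42 genes under each fit, with a cross where the gene was not called; genes are ordered by log2 fold change. Rows from RAD54L to FANCC carry no cross, and crosses gather between FANCB and HELQ, where log2 fold changes lie between -0.48 and 0.23, apart from the 1.2-fold test for FAN1 and MUS81.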

How the data were processed

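Reads from a BGISEQ-500 instrument were filtered by the authors (SOAPnuke) and aligned to transcripts (Bowtie2), and RSEM, which divides reads among similar sequences, estimated a total per gene. Versions and strand are not given in the sources used here, and hg38 is named in the submitters' processing notes. The deposited tables hold log2 CPM that the authors computed with edgeR, for 15953 genes and all 6 libraries, and estimated counts from RSEM for 1 shNC and the 3 shSTIL libraries, not normalized.

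From the log2 CPM of all genes, shSTIL was compared with shNC in R 4.3.3 by a limma 3.58.1 linear model whose variance prior followed the mean level, with Benjamini-Hochberg adjustment over all genes and the methods' threshold of an adjusted p under 0.01. No filter was applied. Reads were recovered from the spacing of the deposited log2 CPM. They differed from the deposited estimated counts by at most 0.0319 reads, and 88.1% to 88.4% of values were whole within 0.02 reads. They were rounded to whole numbers for edgeR 4.0.16 (quasi-likelihood test, TMM) and DESeq2 1.42.0, which were alternatives. The main limma fit and the edgeR fit were also run on simulated libraries, in which far fewer genes changed than were called here. The spread between simulated libraries was set by hand, so that run does not measure accuracy on these data. Overlaps of exons and coordinates are from GENCODE on GRCh38, and promoter windows from RefSeq (GRCh38.p14).

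The genes and lists were chosen with earlier results of these data known, and 1 gene of the related list is not reported here. Values in every library are given for the 8 called genes with the largest log2 fold change in either direction, each gene called higher, both genes of each pair and the 3 genes with the fewest reads, and also for STIL and, chosen after their values were seen, BRCA2, CLSPN, SLX1A and XRCC5. Genes of the other lists could be named when called with a log2 fold change of at least 1 in size, at most 12. STIL, the cell type markers and those said to be named after their values were seen stand beside these. MCM2 and PCNA were named as examples of their list, in which larger falls, such as RRM2 at -2.09, are not described.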

Additional observations from a re-analysis of the deposited data

How the results depend on the processing

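Precision rests on 3 libraries a group of unstated independence and on 1 cell line with 1 knockdown. With the replicate block, 27 of the 42 genes were lower and 3 higher (21.7% and 21.5% of all genes), and the calls of FANCE and CHEK1 were lost (limma adjusted p = 0.0139 and 0.0165); it changed no other call of the 42. No shared shift by replicate number was seen. Deviations from the group means correlated at -0.121, -0.055 and -0.107 for numbers 1, 2 and 3 over 11319 genes. Of the 6 libraries, 0 correlated best with its own number. With 3 libraries a group, these values cannot show whether the libraries were made in numbered batches. The count of lower genes among the 42 was 23 to 25 with each library left out (15.7% to 17.8% of all genes), 30 with edgeR (24.7% of all genes), 27 with DESeq2 (21.4%), 27 after quantile normalization (21.9%), 30 with median centring (24.2%), 24 without the variance trend (18.7%) and 33 at an adjusted p under 0.05 (28%). Against a 1.2-fold change (limma treat), 19 were lower (11% of all genes) and 1, RAD50, was higher, since that test asks for a larger change. Among the 55 related genes, 18 were lower and 1 higher under limma treat (9.77% of all genes higher), and 4 were higher without the trend (18.0%). Leaving out each library gave 17 to 22 lower and 3 to 5 higher (15.0% to 17.6% of all genes higher). The fits without 1 library test fewer libraries.

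The log2 fold change of STIL lay between -2.01 and -1.96 under all alternatives. The signs of 4 small values turned. FANCF was at 0.03 with quantile normalization and from -0.06 to 0.03 with a library left out. RAD52 ranged from -0.03 to 0.10, FANCD2 minus FANCI from -0.05 to 0.03 and ATM minus ATR from -0.05 to 0.02 with a library left out. The cause was not tested. The number of pairs without overlap was 8 under each of the alternatives run for them. Leaving out a library cannot make separate groups overlap, so those fits could not have lowered this number.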

Other observations

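Genes of end joining, the route that rejoins broken ends without a template, and of the choice between it and recombination were counted as a list of 25. Of these, 9 were lower (36.0%), 3 were higher (12%) and 13 were not called, with a median log2 fold change of -0.16. Over all genes the shares were 23.6% lower and 23.5% higher, and 31.2% and 31.1% among genes at the levels of the recombination and Fanconi genes. The genes named here were chosen after their values were seen. XRCC5, which encodes the larger Ku subunit, stood at 9.51, 9.58 and 9.55 log2 CPM in shNC and at 8.70, 8.71 and 8.68 in shSTIL, a log2 fold change of -0.85 (adjusted p = 1.0e-10, limma). Its partner XRCC6 had one of -0.50 (adjusted p = 6.6e-09, limma), and PRKDC, the kinase that Ku recruits, one of -0.37 (adjusted p = 5.6e-06, limma). XRCC4, a scaffold of the ligation step, was at -0.82 (adjusted p = 1.5e-06, limma), whereas its ligase LIG4 was not called (0.17, adjusted p = 0.0381, limma).

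The 3 higher genes were APLF, a scaffold that binds Ku, LIG3, a ligase of alternative end joining and break repair, and POLL, a gap-filling polymerase. APLF had 87 to 95 reads in shNC and 153 to 183 in shSTIL, a log2 fold change of 0.78 (adjusted p = 4.5e-05, limma). LIG3 had one of 0.44 (adjusted p = 1.7e-05, limma) and POLL one of 0.24 (adjusted p = 9.0e-04, limma). APLF shares 23.5% of its exon bases with PROKR1 on the same strand. RFFL on the opposite strand overlaps 43.8% of the exon bases of LIG3, so the values of APLF and LIG3 are uncertain. TP53BP1 and RIF1, which protect ends from resection, were not called (-0.12 and 0.06, limma adjusted p = 0.0121 and 0.299). The groups of TP53BP1 did not overlap, with shSTIL lower, and those of RIF1 did.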
